A study of Mus musculus with 200 samples.

Results

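P2ry12, P2ry13, Gpr34, Cx3cr1, Selplg, Siglech, Tmem119, Olfml3 and Sall1 are 9 genes by which homeostatic microglia, the resting state of the resident macrophages of the brain, are usually recognised. They were taken by gene symbol from a table of 56941 genes, and each symbol had 1 row. All 9 passed the filter on low counts in every comparison below, and the lowest estimated count of any of them in any mouse was 56, for Olfml3. The question put to them was how their RNA differed between closed head injury (CHI) and sham surgery in 4 strains of mice and at 3 times.

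RNA of brain tissue was sequenced from 200 mice, 67 of them sham and the rest with CHI, so that each value below is 1 mouse. CHI was a single impact on the intact skull, whereas sham mice had anaesthesia and a scalp incision without an impact. Tissue was collected at 9, 24 or 72 h, for C57BL/6J mice as 1 hemisphere after perfusion. The strains were C57BL/6J (61 mice) and 3 strains named after IL-1R1, the receptor of the cytokine interleukin-1, namely gKO (55), eRestore (50) and nRestore (34). Their alleles, their genetic background and the promoters or cell types behind the names are not given in the sources used here. At 9, 24 and 72 h the C57BL/6J groups held 15, 14 and 14 CHI mice and 6 sham mice each time. The IL-1R1 gKO groups held 13, 12 and 12 CHI mice and 6 sham mice each time. The IL-1R1 eRestore groups held 12, 9 and 12 CHI mice and 6, 5 and 6 sham mice, and the IL-1R1 nRestore groups held 6, 8 and 6 CHI mice and 4, 5 and 5 sham mice. Mice were of both sexes, except for IL-1R1 nRestore at 72 h, where all were labelled male, and were 3.3 to 7.67 months old.

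The summed estimated counts of a mouse lay between 14857985 and 57355676, with a median of 20258936. The level of Il1r1, the receptor gene named in the strain labels, was not lower in IL-1R1 gKO mice (median 9.93 counts per 1000000 counts, CPM, range 6.09 to 17.8) than in C57BL/6J mice (median 5.21, range 2.95 to 13.0). In eRestore mice the median was 7.77 (5.20 to 16.7) and in nRestore mice 9.39 (5.94 to 14.2). The 3 strains thus had higher medians than C57BL/6J, with overlapping ranges. No loss of Il1r1 RNA was seen that could check the gKO label. Sex-linked genes went against the sex label in 2 mice, IL-1R1 eRestore sham replicate 4 at 24 h and IL-1R1 nRestore CHI replicate 6 at 72 h, so that the latter group was all male by label only. Without the mouse in question 0 members were called in either strain at that time, as with it. All 9 h mice came from experiments that held no later mice, so that time after surgery, experiment and the time of day of collection cannot be told apart between 9 h and later times. All 10 neuron genes, 8 astrocyte genes and 8 oligodendrocyte genes listed as markers of brain tissue passed the filter in the comparisons over all strains.

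Microglia survey brain tissue with motile processes, and several of these genes encode the receptors by which they sense injury. P2RY12 and P2RY13 are G protein-coupled receptors for ADP, which leaks from damaged cells, and P2RY12 steers microglial processes towards it. GPR34 is a related receptor for lysophosphatidylserine. CX3CR1 binds fractalkine, which neurons present on their surface and encode in Cx3cl1. SELPLG (PSGL-1) binds P-selectin, and SIGLECH belongs to the sialic acid-binding lectins. TMEM119 is a membrane protein widely used to tell microglia from blood-derived macrophages, OLFML3 is a secreted matrix protein, and SALL1 is a zinc-finger transcription factor that maintains microglial identity. Signals through CSF1R and TGF-beta keep this gene programme on, and its genes are known to lose RNA when microglia become activated.

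The genes lie at 7 places in the genome (positions in GRCm39, annotated by GENCODE). P2ry12 (ENSMUSG00000036353, chr3:59123682-59170429) and P2ry13 (ENSMUSG00000036362, chr3:59114539-59118304) are neighbours on the minus strand, and both sit inside the gene Med12l, which runs the other way. Tmem119 (ENSMUSG00000054675, chr5:113931781-113938577) and Selplg (ENSMUSG00000048163, chr5:113956597-113970705) are also neighbours on the minus strand. Gpr34 (ENSMUSG00000040229, chrX:13489625-13507116, plus strand) sits inside Cask, on the other strand. Cx3cr1 (ENSMUSG00000052336) is at chr9:119877749-119898945, Sall1 (ENSMUSG00000031665) at chr8:89753863-89770823, Olfml3 (ENSMUSG00000027848) at chr3:103629538-103645322 and Siglech (ENSMUSG00000051504) at chr7:55417926-55429195. An annotated gene on the other strand overlaps 7 of the 9, all but Tmem119 and Siglech. Whether the counting used strand is not given in the sources used here, so for those 7 genes reads of a gene and of its partner may not have been separated.

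The 250 bases before the start of each gene's canonical transcript in the annotation were searched on both strands for sites of factors known to drive microglial genes. Since other transcripts of these genes start further out, the windows of Cx3cr1, Sall1, Gpr34 and Selplg lie inside the annotated gene, and 6 bases of that of Siglech do. The PU.1 site GAGGAAGT, present in 2.08% of 21770 promoter windows, and the ETS-IRF element GGAANNGAA, present in 6.94%, were in none of the 9 windows. The MEF2 site CTATTTATA, present in 0.395%, was also in none. The shorter ETS core AGGAAGT, which lies within the PU.1 site and was chosen after the windows had been seen, was in 7.12% of all windows and in 2 of the 9, those of P2ry12 and Sall1. Both stretches are shown 5′ to 3′ on the strand of the gene, with the core in capitals. The P2ry12 stretch is at chr3:59170441-59170469, over an exon of Med12l. Its core lies 23 bases before the start of the canonical transcript and of the gene. The Sall1 stretch is at chr8:89769654-89769682, inside the gene by 1141 bases and over exons of Sall1 itself and of Gm3134. The whole window of P2ry13 (chr3:59118305-59118554), the neighbour of P2ry12, is shown for comparison and holds none of these letters. These matches describe the windows only.
P2ry12: agctaacaagaAGGAAGTtccccagtgac
Sall1: gcgcgggagttAGGAAGTtcgccgctcgc
P2ry13: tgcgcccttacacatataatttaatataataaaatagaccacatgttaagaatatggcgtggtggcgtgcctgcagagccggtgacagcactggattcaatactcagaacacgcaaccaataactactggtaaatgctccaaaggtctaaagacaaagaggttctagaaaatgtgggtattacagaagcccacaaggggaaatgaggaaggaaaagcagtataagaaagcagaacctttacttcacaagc

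Among the members, P2ry12 had the highest level per transcript length in sham mice. Its median over 67 sham mice was 57.9 transcripts per 1000000 transcripts (TPM), with a range of 44.1 to 91.3. Cx3cr1 followed with a median of 31.9 TPM (22.8 to 41.1), and these ranges did not overlap. Selplg (21.0 TPM, 14.0 to 29.8), Tmem119 (17.6, 12.6 to 26.0), Siglech (17.4, 9.85 to 23.0) and Gpr34 (17.1, 12.3 to 32.0) came next, and their ranges overlapped widely. P2ry13 (10.9 TPM, 6.63 to 15.0), Sall1 (7.97, 5.36 to 10.8) and Olfml3 (5.34, 2.91 to 8.68) were lowest, each overlapping its neighbours in the order. All values that follow are CPM, which suit comparisons of 1 gene between mice, and all differences are log2 fold changes of CHI against sham from the quasi-likelihood test of edgeR, in which sex and age were covariates. A gene was called changed at a Benjamini-Hochberg adjusted p under 0.05 over all genes tested.

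At 9 h the homeostatic genes were lower after CHI. In C57BL/6J mice 8 of the 9 were called lower, all but Cx3cr1, whereas 7.00% of the 16967 genes tested were called lower. The median log2 fold change of the members was −0.41, against −0.01 over all genes tested. In bulk tissue, fewer cells of a type and less RNA per cell cannot be told apart. The largest falls were in P2ry12, Olfml3 and Gpr34.

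P2ry12 ranged from 31.0 to 66.2 CPM in C57BL/6J sham mice at 9 h (median 39.4, n = 6) and from 13.1 to 35.8 after CHI (median 20.3, n = 15). Of the 15 CHI mice, 14 were below every sham mouse, and the groups overlapped through 1 mouse. The log2 fold change was −1.05 (SE 0.14, adjusted p = 2.0e-05), or 0.483 times the sham level. The difference was also present within each experiment. In experiment eIL-1-80 the 2 sham mice had 32.3 and 34.8 CPM and the 5 CHI mice had 13.1 to 22.3, without overlap, and in eIL-1-76 the 4 sham mice had 31.0 to 66.2 CPM and the 10 CHI mice 13.1 to 35.8.

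Gpr34, the lysophosphatidylserine receptor, fell from a median of 14.1 CPM in C57BL/6J sham mice (10.9 to 21.8) to 8.21 after CHI (4.80 to 12.8), with 14 of 15 CHI mice below all sham mice. Its log2 fold change was −0.87 (SE 0.14, adjusted p = 9.5e-05). P2ry13, the other ADP receptor, had a smaller fold change. It had a median of 14.0 CPM in sham mice (8.00 to 21.4) and 11.3 after CHI (6.51 to 14.2), and 3 of 15 CHI mice were below all sham mice (log2 fold change −0.45, SE 0.12, adjusted p = 0.015). The groups overlapped widely for P2ry13.

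Among the genes for surface receptors of other kinds, Selplg had a median of 16.7 CPM in C57BL/6J sham mice (13.7 to 24.0) and 13.1 after CHI (8.18 to 21.5), a log2 fold change of −0.41 (SE 0.13, adjusted p = 0.042). Siglech had 9.59 CPM (8.79 to 15.3) and 8.65 (5.66 to 11.0), a log2 fold change of −0.35 (SE 0.11, adjusted p = 0.028). Both groups overlapped, with 10 and 8 of 15 CHI mice below all sham mice for Selplg and Siglech. Cx3cr1, the fractalkine receptor, had 56.8 CPM in sham mice (44.0 to 71.2) and 51.8 after CHI (29.4 to 67.2), and its difference of −0.26 did not pass the test (SE 0.10, adjusted p = 0.098).

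Olfml3, the secreted matrix protein gene, had a median of 11.8 CPM in C57BL/6J sham mice (8.05 to 19.3) and 6.26 after CHI (4.56 to 9.27), with 13 of 15 CHI mice below all sham mice. Its log2 fold change of −0.999 (SE 0.14, adjusted p = 3.8e-05) was close to that of P2ry12. The membrane marker Tmem119 had 17.1 CPM (13.3 to 21.0) and 12.6 (6.93 to 18.6), and its call was the nearest to the threshold (log2 fold change −0.40, SE 0.13, adjusted p = 0.049). The transcription factor Sall1 had 20.6 CPM (17.3 to 25.5) and 16.8 (12.4 to 19.1), a smaller but tighter fall of 0.37 on the log2 scale (SE 0.08, adjusted p = 0.0034).

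**Figure D1:**
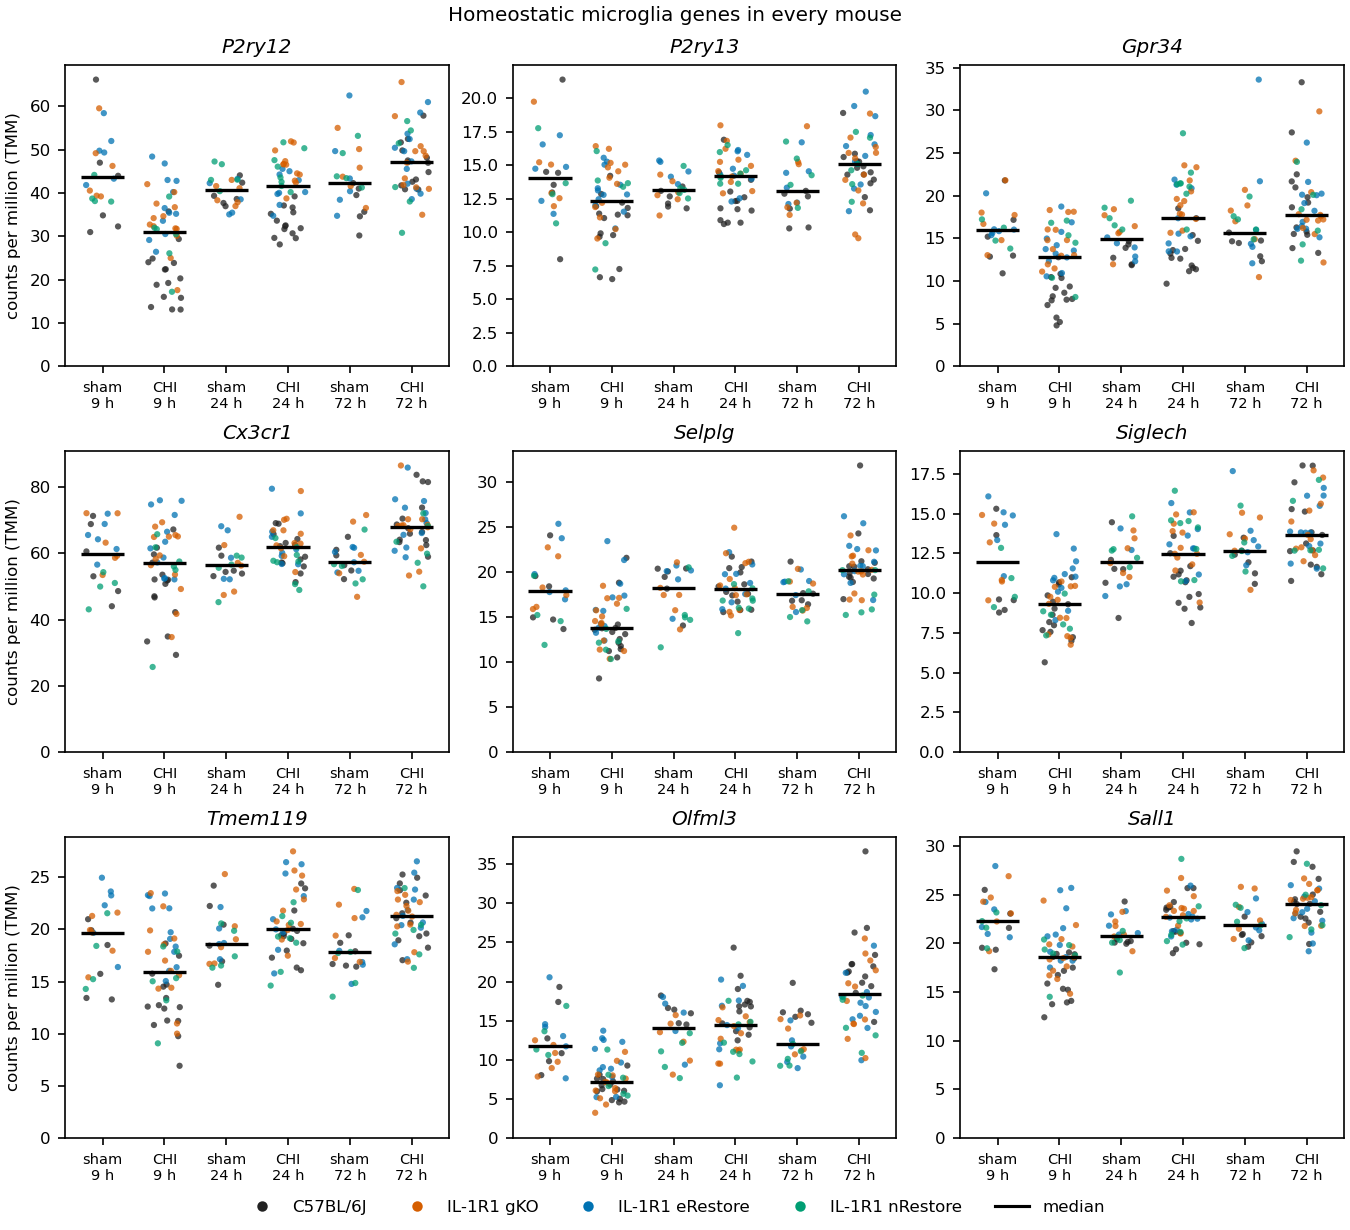
CPM (vertical axis) of each of the 9 genes in sham and CHI mice at 9, 24 and 72 h, 1 point a mouse, coloured by strain, with a bar at the median over the strains. At 9 h the C57BL/6J CHI mice (black) form the lower end of the points for P2ry12 (13.1 to 35.8 CPM) and Gpr34 (4.80 to 12.8 CPM), and sham and CHI mice overlap at every time in each panel.

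The C57BL/6J count at 9 h rests in part on single sham mice. The sham mouse named replicate 5 had the highest level of 6 for all 9 genes, for example 66.2 CPM of P2ry12. Without sham replicate 1 or sham replicate 5 the count fell to 4, and without sham replicate 6 to 5, with P2ry12, Olfml3, Gpr34 and Sall1 called in each case. Without covariates the count was 4, and with only the mice of the larger experiment it was 3 (P2ry12, Olfml3 and Gpr34). Calls over all genes, in either direction, fell in these fits too, from 2385 of 16967 in the reported fit. They were 1790 of 17168 without sham replicate 1, 1812 of 17173 without 5 and 1980 of 17150 without 6. Without covariates they were 1844 of 16967, and in the larger experiment 1226 of 17220.

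In the other strains nearly every member was below 0 at 9 h, and fewer were called. In IL-1R1 gKO mice all 9 genes were below 0 and none was called, where 0.126% of 16604 genes were called lower. An unadjusted p under 0.05 was found for 5 of the 9 and for 10.7% of all genes. P2ry12 ranged from 39.2 to 59.5 CPM in gKO sham mice (median 43.4) and from 17.6 to 42.04 after CHI (median 32.7), with 11 of 13 CHI mice below all sham mice (log2 fold change −0.46, SE 0.13, adjusted p = 0.14). Siglech had 12.0 CPM (9.56 to 14.92) in these sham mice and 9.33 (6.76 to 10.7) after CHI, a difference of −0.45 (SE 0.12, adjusted p = 0.12). Both P2ry12 and Siglech were called in this strain when DESeq2 was used in place of edgeR (adjusted p = 0.047 and 0.035), which called 1.31% of all genes in either direction against 0.199% with edgeR. DESeq2 with gene-length offsets called 1.02% of genes and 0 of the members.

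In IL-1R1 eRestore mice all 9 genes were again below 0 at 9 h, and 2 were called, where 3.24% of 16652 genes were called lower. P2ry12 had 41.8 to 58.4 CPM in sham mice (median 49.6) and 26.4 to 48.4 after CHI (median 35.98), with 8 of 12 CHI mice below all sham mice (log2 fold change −0.41, SE 0.11, adjusted p = 0.035). Siglech had 11.1 to 16.1 CPM (median 14.6) and 8.31 to 13.7 (median 11.0), a log2 fold change of −0.39 (SE 0.10, adjusted p = 0.022). The groups overlapped for both genes. The count fell to 1 without sham replicate 1, 3 or 6 and to 0 without sham replicate 2 or 5. Over all genes, 632, 963 and 1910 were called without replicate 1, 3 or 6, and 554 and 692 without 2 or 5, against 1222 with all sham mice. P2ry12 also lost its call without the filter on low counts (adjusted p = 0.083). With DESeq2 and gene-length offsets P2ry12 was not called (adjusted p = 0.11), whereas Selplg was (adjusted p = 0.041).

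In IL-1R1 nRestore mice 8 of the 9 were below 0 at 9 h and none was called, where 0.262% of 16788 genes were called lower. An unadjusted p under 0.05 was found for 13.1% of all genes and for 1 member, which is near that share. That gene was Olfml3, with 10.6, 13.7, 16.9 and 11.3 CPM in the 4 sham mice and 5.44 to 11.3 after CHI (median 7.18), 5 of 6 CHI mice being below all sham mice (log2 fold change −0.91, SE 0.21, adjusted p = 0.079). P2ry12 had 38.7, 44.2, 38.0 and 38.1 CPM in the sham mice and 17.2 to 39.2 after CHI (median 31.1), a difference of −0.44 (SE 0.21, adjusted p = 0.42). Only Cx3cr1 was above 0 (0.09, SE 0.30), and here the CHI mouse named replicate 2 had 25.7 CPM while the other 5 CHI mice were above all sham mice. Without nRestore sham replicate 2 or 4 Olfml3 was called (adjusted p = 0.0052 and 0.021), and so it was with DESeq2 (adjusted p = 0.0037).

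Over the 4 strains together, with strain as a further covariate, 8 of the 9 members were called lower at 9 h and 11.9% of 18741 genes were. Olfml3 (−0.72, SE 0.10, adjusted p = 5.7e-08) and P2ry12 (−0.62, SE 0.09, adjusted p = 7.2e-08) had the lowest values. Over the strains Olfml3 ranged from 7.64 to 20.5 CPM in 22 sham mice and from 3.24 to 13.7 in 46 CHI mice. Gpr34 fell by 0.41 (SE 0.08), Siglech by 0.38 (SE 0.06) and Selplg by 0.35 (SE 0.06). Sall1 fell by 0.27 (SE 0.05), Tmem119 by 0.25 (SE 0.07) and P2ry13 by 0.23 (SE 0.07, adjusted p = 0.017), while Cx3cr1 differed by −0.10 and did not pass (SE 0.07, adjusted p = 0.34). Within experiments P2ry12 differed by −0.70 in eIL-1-76, −0.74 in eIL-1-80 and −0.44 in TM-2-33, where it did not pass (adjusted p = 0.21). Of the members, 6, 4 and 0 were called in these experiments, where 8.14%, 8.44% and 1.77% of all genes were called in either direction. TM-2-33 held only IL-1R1 gKO and nRestore mice, whereas the C57BL/6J mice of 9 h were all in the other experiments. Its values thus differ from theirs in strain as well as in experiment.

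**Figure D2:**
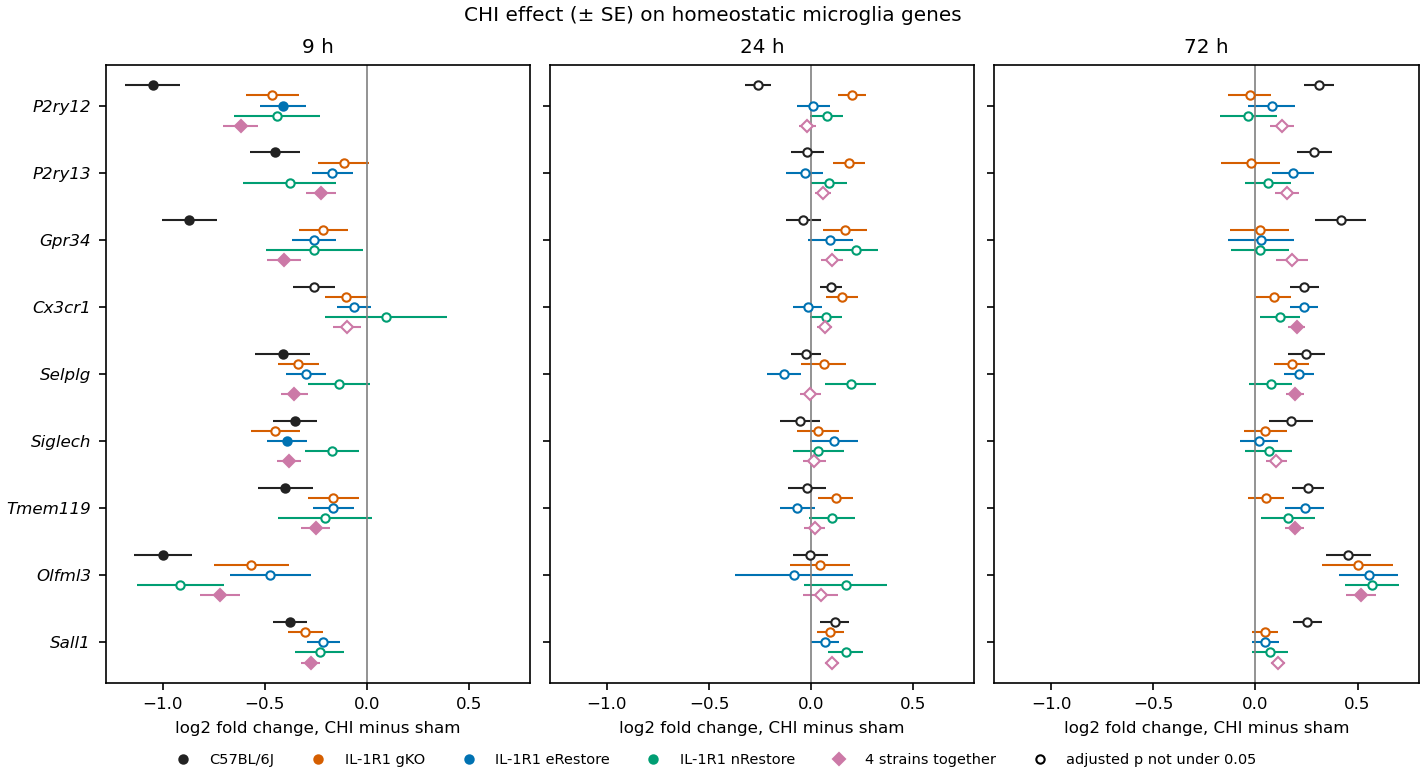
Log2 fold change of CHI against sham for each of the 9 genes in each strain and over all strains, at 9, 24 and 72 h, with bars of 1 SE and filled points for adjusted p under 0.05. Most values are below 0 at 9 h, near 0 at 24 h and above 0 at 72 h, where Olfml3 stands highest in every strain.

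None of the strain differences at 9 h passed the test. The CHI effect on P2ry12 lay above that in C57BL/6J by 0.56 in IL-1R1 gKO (SE 0.22, adjusted p = 0.62), by 0.64 in IL-1R1 eRestore (SE 0.22, adjusted p = 0.31) and by 0.64 in IL-1R1 nRestore (SE 0.26, adjusted p = 0.79). For Gpr34 these differences were 0.64 (SE 0.20), 0.61 (SE 0.20) and 0.72 (SE 0.24), with adjusted p of 0.44, 0.28 and 0.65. These 3 comparisons share the C57BL/6J mice. All nRestore mice of 9 h came from experiment TM-2-33, which held no C57BL/6J mice. Strain and experiment thus cannot be told apart in the comparison of nRestore with C57BL/6J. Over all genes the shares called were 0%, 0.0107% and 0.00534%, so few genes of any kind passed. An unadjusted p under 0.05 was found for 2, 3 and 2 members, and for 6.40%, 8.58% and 5.56% of all genes. A smaller fall in these strains was thus not shown by this test.

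At 24 h the members were close to their sham levels. None of the 9 was called over the 4 strains, where 1.48% of 18495 genes were called in either direction. Of the members 7 were above and 2 below 0, and 1 (Sall1, 0.10, SE 0.04) had an unadjusted p under 0.05, as did 14.0% of all genes. DESeq2 also called 0 members, and 471 of the 18495 genes. Olfml3 had a median of 14.1 CPM in 22 sham mice (7.67 to 18.2) and 14.4 in 43 CHI mice (6.75 to 24.3), and its difference was 0.05 (SE 0.08). Within strains the shares of genes called were 0.404% in C57BL/6J, 0.00590% in IL-1R1 gKO, 0% in IL-1R1 eRestore and 0% in IL-1R1 nRestore, and no member was called in any of them. The members with an unadjusted p under 0.05 were 1, 2, 0 and 0, and DESeq2 called 1, 0, 0 and 0.

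Of the members, only P2ry12 was called in a test of strain differences at 24 h. In C57BL/6J mice it ranged from 37.0 to 44.1 CPM in 6 sham mice (median 39.0) and from 28.1 to 39.2 in 14 CHI mice (median 32.4), and 12 of the 14 were below all sham mice. The difference was −0.26 (SE 0.06, adjusted p = 0.071), and it passed with DESeq2 (adjusted p = 0.024), without the filter on low counts (adjusted p = 0.0025) and with experiment in place of age (adjusted p = 0.045). It did not pass with DESeq2 and gene-length offsets, with RLE factors, with 10 counts required in every mouse, without covariates, in the largest experiment alone or without any 1 of the 6 sham mice. In IL-1R1 gKO mice it lay the other way, at 37.0 to 43.0 CPM in 6 sham mice (median 39.7) and 38.8 to 51.9 in 12 CHI mice (median 46.6), with 9 of the 12 above all sham mice (0.20, SE 0.07, adjusted p = 0.34). The sham ranges of both strains were nearly the same, and the CHI ranges met only between 38.8 and 39.2 CPM.

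The difference of the CHI effect between IL-1R1 gKO and C57BL/6J mice at 24 h was 0.46 for P2ry12 (SE 0.09, adjusted p = 0.030). It was the only gene called in that comparison, 0.00541% of the 18495 genes tested. It stood over 17 alternatives between 0.43 and 0.48, of which 10 passed, with adjusted p from 0.023 to 1. It did not pass without C57BL/6J sham replicate 2, 3 or 5, without IL-1R1 gKO sham replicate 3 or 6, in experiment eIL-1-38 alone (0.43, adjusted p = 1) or without experiment NiL-1-21 (0.48, adjusted p = 0.16), which held 1 sham mouse and 18 CHI mice at 24 h. That sham mouse was C57BL/6J, whereas 5 of the CHI mice were IL-1R1 gKO. At 24 h IL-1R1 gKO CHI mice were 4.5 to 7.4 months old and gKO sham mice 4.5 to 5.3. Within eIL-1-38, C57BL/6J mice had 37.0 to 42.4 CPM in 3 sham mice and 29.6 to 37.1 in 7 CHI mice, and IL-1R1 gKO mice had 37.0 and 41.1 CPM in 2 sham mice and 38.8 to 51.9 in 5 CHI mice.

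For P2ry12 in IL-1R1 eRestore mice at 24 h the 5 sham mice had 35.1, 42.3, 35.5, 38.5 and 43.3 CPM and the 9 CHI mice 34.8 to 45.6 (median 40.2), a difference of 0.01 (SE 0.08). In IL-1R1 nRestore mice the 5 sham mice had 43.0, 43.1, 47.3, 46.6 and 40.4 CPM and the 8 CHI mice 40.2 to 51.7 (median 44.8), a difference of 0.08 (SE 0.08). Groups overlapped in both strains. Against C57BL/6J, the difference of the CHI effect was 0.32 in eRestore (SE 0.09, adjusted p = 0.68) and 0.29 in nRestore (SE 0.09, adjusted p = 0.89), with 0.0108% and 0% of genes called. Of the other 8 members none was called in these comparisons, and P2ry13, its neighbour, differed between gKO and C57BL/6J by 0.21 (SE 0.09, adjusted p = 0.48).

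**Figure D3:**
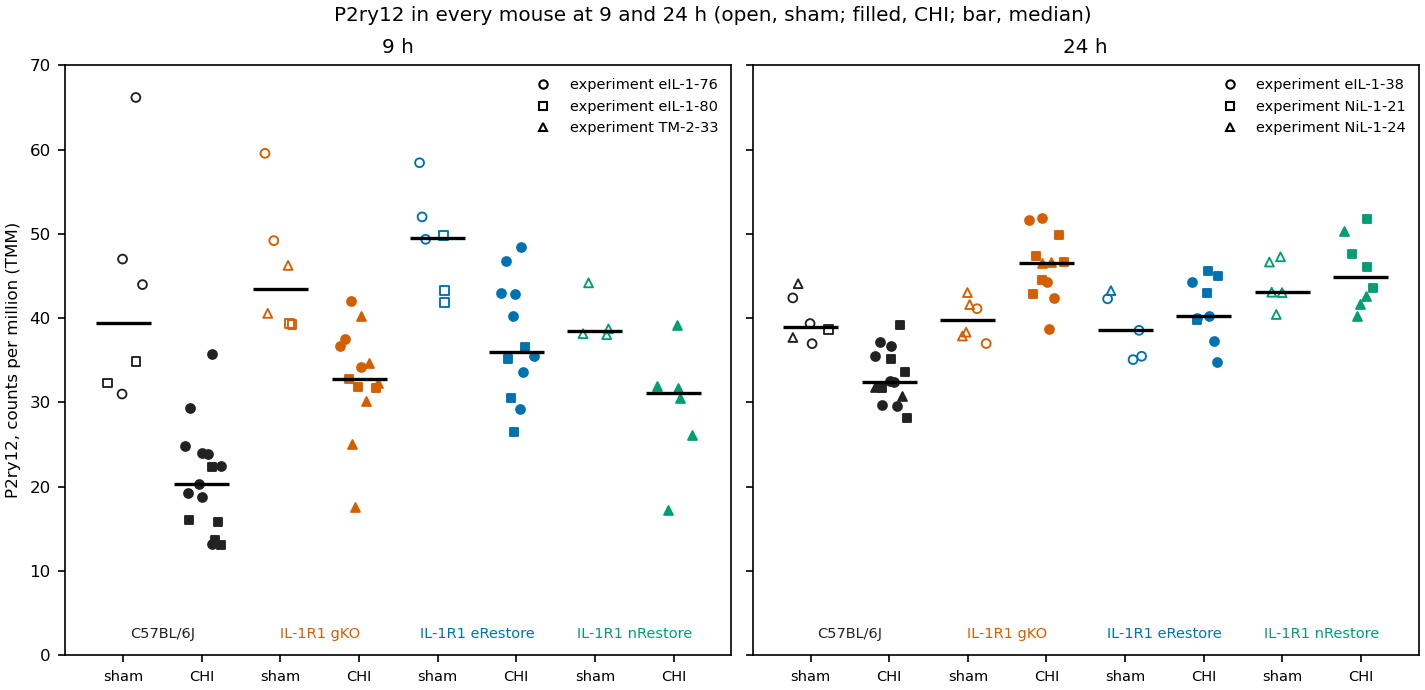
CPM of P2ry12 (vertical axis) in every mouse at 9 and 24 h by strain, with open points for sham, filled points for CHI, point shapes for the experiment and a bar at each group's median. At 24 h, 12 of 14 C57BL/6J CHI mice lie below all their sham mice and 9 of 12 IL-1R1 gKO CHI mice lie above all of theirs.

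At 72 h the members were at or above their sham levels, and Olfml3 had risen. Over the 4 strains 4 of the 9 were called higher, whereas 0.679% of 18408 genes were, and all 9 were above 0. Olfml3 rose by 0.51 (SE 0.07, adjusted p = 3.7e-06), from a median of 12.0 CPM in 23 sham mice (8.94 to 19.8) to 18.4 in 44 CHI mice (9.95 to 36.6). Cx3cr1 rose by 0.20 (SE 0.04, adjusted p = 0.0019), from 57.3 CPM (46.9 to 71.5) to 68.01 (50.0 to 86.5). Selplg (0.19, SE 0.05, adjusted p = 0.015) and Tmem119 (0.19, SE 0.05, adjusted p = 0.028) also rose. Groups overlapped for all 4. The ADP and lipid receptors did not pass, at 0.13 for P2ry12 (SE 0.06), 0.15 for P2ry13 (SE 0.06) and 0.18 for Gpr34 (SE 0.08), nor did Sall1 (0.11, SE 0.03) or Siglech (0.10, SE 0.05), with adjusted p of 0.60, 0.37, 0.59, 0.17 and 0.69.

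Within each strain the Olfml3 difference at 72 h lay between 0.46 and 0.57. In C57BL/6J mice it had 14.7 to 19.8 CPM in sham mice (median 15.9) and 14.8 to 36.6 after CHI (median 21.6), with 11 of 14 CHI mice above all sham mice and a difference of 0.46 (SE 0.11). In IL-1R1 gKO mice it had 10.7 to 15.7 CPM (median 12.7) and 10.2 to 25.5 (median 18.4), with 7 of 12 above and a difference of 0.50 (SE 0.17). In IL-1R1 eRestore mice it had 8.94 to 15.0 CPM (median 11.1) and 9.95 to 24.6 (median 17.1), with 10 of 12 above and a difference of 0.55 (SE 0.14). Most CHI mice of these strains thus lay above their sham mice. In IL-1R1 nRestore mice the 5 sham mice had 11.1, 10.1, 9.24, 12.0 and 9.27 CPM and the 6 CHI mice 10.9 to 18.2 (median 15.9), with 5 of 6 above and a difference of 0.57 (SE 0.13). None of these passed within its strain (adjusted p of 0.24, 1, 0.50 and 0.60), where the shares of genes called were 0%, 0%, 0.00605% and 0.0121%. The members with an unadjusted p under 0.05 were 8 in C57BL/6J and 2, 4 and 1 in the other strains. The shares of all genes with such a p were 5.15% in C57BL/6J and 2.25%, 5.70% and 5.63% in the others. In C57BL/6J DESeq2 called 2, P2ry12 and Olfml3 (adjusted p = 0.033 for both), where it called 41 of all 16875 genes. In gKO, eRestore and nRestore it called 0 members, and 0, 12 and 11 of all genes. DESeq2 with gene-length offsets called 0 members and 22 genes in C57BL/6J.

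The count of 4 at 72 h depended on the mice used. Without C57BL/6J or without IL-1R1 eRestore mice it was 1, Olfml3 in both cases. Over all genes 53 of 17969 and 82 of 18140 were then called in either direction, against 130 of 18408 with all mice. In experiment eIL-1-38 alone Olfml3 differed by 0.50 (adjusted p = 0.055), in eIL-1-56 by 0.44 and in nIL-1-60 by 0.51, and 1, 0 and 0 members were called, where 0.205%, 0% and 0.0315% of all genes were. The difference of the CHI effect between strains at 72 h passed for no member, where 0%, 0% and 0.00543% of genes were called for gKO, eRestore and nRestore against C57BL/6J. Gpr34 had the widest of these, −0.40 in nRestore (SE 0.24, adjusted p = 0.78) and −0.39 in eRestore (SE 0.21, adjusted p = 1).

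The CHI effect differed between times for most members. The effect at 9 h was below that at 24 h for 8 of the 9, where 5.47% of 20111 genes were called lower. It was −0.76 for Olfml3 (SE 0.13), −0.60 for P2ry12 (SE 0.10), −0.53 for Gpr34 (SE 0.11) and −0.41 for Siglech (SE 0.08), all with adjusted p of 0.00011 or less. Sall1 (−0.38), Selplg (−0.36), P2ry13 (−0.29) and Tmem119 (−0.29) also passed, and Cx3cr1 (−0.17, SE 0.08, adjusted p = 0.15) did not. Against 72 h, the effect at 9 h was lower for all 9, where 6.75% of genes were, from −1.23 for Olfml3 (SE 0.12, adjusted p = 2.6e-15) and −0.74 for P2ry12 (SE 0.09) to −0.29 for Cx3cr1 (SE 0.07, adjusted p = 0.0023). Between 72 and 24 h no member passed, where 0.0348% of genes did, and Olfml3 was nearest (0.46, SE 0.13, adjusted p = 0.24). An unadjusted p under 0.05 was found for 2 members and for 4.60% of all genes. The time comparisons share each time's mice.

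The effect of CHI did not differ detectably between males and females. No member passed at 9, 24 or 72 h, where 0%, 0% and 0.00543% of genes did. The widest difference was −0.24 for Olfml3 at 24 h (SE 0.16, adjusted p = 0.98). An unadjusted p under 0.05 was found for 0, 1 and 0 members, and for 2.29%, 5.26% and 3.80% of all genes. At 9 h the male minus female difference for P2ry12 was −0.04 (SE 0.18).

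Among sham mice alone, Olfml3 was the only member called between strains, and its calls depended on the covariates. Its level was lower by 0.36 in IL-1R1 gKO than in C57BL/6J sham mice on the log2 scale (−0.36, SE 0.11, adjusted p = 0.042) and by 0.43 in IL-1R1 nRestore (−0.43, SE 0.12, adjusted p = 0.012), while the difference in IL-1R1 eRestore was −0.19 (SE 0.11, adjusted p = 0.41). The shares of genes called were 4.51%, 12.0% and 4.29% for gKO, nRestore and eRestore. In nRestore 1 call among 9 members is thus near the share of all genes. With experiment in place of age neither Olfml3 difference passed (adjusted p = 0.077 and 0.14). Between times no member differed in sham mice, although 42.9% of 18994 genes differed between 9 and 24 h. There 0 members had an unadjusted p under 0.05, against 50.3% of all genes. Between 72 and 24 h 0% of genes were called, and 1 member (Sall1, 0.10, SE 0.05) had an unadjusted p under 0.05, as did 4.59% of all genes. P2ry12 had medians of 43.6, 40.8 and 42.3 CPM in sham mice at 9, 24 and 72 h.

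Other genes listed as homeostatic moved in both directions at 9 h. The members were chosen with earlier results of these data known, so their own uniformity is no separate result. Which cells of the tissue gave the RNA of these lists was not tested. Of 16 further homeostatic genes 4 were called lower and 1 higher over all strains, with a median of −0.12, where 12.0% of all genes were called higher and 11.9% lower. Slc2a5, a fructose transporter of microglia, fell by 0.74 (SE 0.09, adjusted p = 2.7e-09), close to the value of Olfml3, and Mertk, a receptor for engulfing dead cells, rose by 0.23 (SE 0.05, adjusted p = 0.00012). Of 16 genes shared by microglia and other macrophages 2 were higher, led by the Fc receptor gene Fcgr3 (0.46, SE 0.07), and 3 lower, led by the integrin gene Itgam (−0.38, SE 0.07), with a median of 0.07. Of 18 activated microglia genes 10 were higher and 1 lower, with a median of 0.51, and the galectin gene Lgals3 (1.52, SE 0.21) and the chemokine gene Ccl3 (2.42, SE 0.34) had the smallest p. Both had few reads, with median counts over all mice of 14 for Lgals3 and 4 for Ccl3. The summed activated genes, most of it from 1 gene, had medians of 1141.6 CPM in sham and 1093.2 in CHI mice. For the shared macrophage genes the medians were 239.6 and 245.4 CPM. The sum of the 9 members was 161.2 to 285.8 CPM in sham mice at 9 h (median 218.2) and 109.02 to 242.97 in CHI mice (median 177.9).

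Of the 13 other purine signalling genes at 9 h, 2 were higher and 4 lower. P2ry1, another ADP receptor gene, fell by 0.46 (SE 0.11, adjusted p = 0.0014), and the adenosine receptor gene Adora1 rose by 0.14 (SE 0.04, adjusted p = 0.0024). Of 11 ligand and upstream regulator genes tested, 2 were higher and 2 lower. Smad3, which relays TGF-beta signals, rose by 0.43 (SE 0.05, adjusted p = 5.0e-09), and Il34, a ligand of CSF1R, fell by 0.20 (SE 0.04, adjusted p = 6.4e-05). Cx3cl1, the ligand of Cx3cr1, was named after its value had been seen and fell by 0.20 (SE 0.06, adjusted p = 0.014).

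Markers of other cell types were measured in the same mice. Of 8 perivascular macrophage genes 2 were higher and 1 lower at 9 h, led by Lyve1 (0.71, SE 0.19) and Ms4a7 (−0.97, SE 0.30). The median counts of Lyve1 and Ms4a7 over all mice were low, at 18 and 6. The summed level of the 8 genes was 7.85 to 31.9 CPM in sham and 10.3 to 23.8 in CHI mice. Of 12 monocyte and neutrophil genes 4 passed the filter and 1 was called, Lyz2 (−0.26, SE 0.09), and the summed level of the 12, most of it Vcan, was 21.5 to 36.6 CPM in sham and 22.1 to 38.9 in CHI mice. The defining genes Ly6c2, Plac8, Ngp, Camp and Mmp8 had a median count of 0 over all mice. No platelet gene of 5 tested and no lymphocyte gene (Trac, the only one tested) was called at 9 h. Among other brain cells, 1 neuron gene was higher and 1 lower of 10, 2 astrocyte genes were higher of 8 (Gfap by 0.79, SE 0.11), 2 oligodendrocyte genes were lower of 8 (Ermn by 0.35, SE 0.09) and 3 endothelial genes were higher and 2 lower of 8. The shares called in the purine, ligand, neuron, astrocyte, oligodendrocyte and endothelial lists are to be read against the 12.0% and 11.9% of all genes called higher and lower. The part of these in the members' changes was not tested.

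At 24 h 1 of the 16 further homeostatic genes was called, the adhesion receptor gene Adgrg1 (0.26, SE 0.04), together with 1 of 16 shared macrophage genes, the lysosomal Cd68 (0.41, SE 0.07), and 2 of 17 activated genes, Clec7a (0.80, SE 0.22) and Ccl12 (1.22, SE 0.34), all higher. At 72 h the members that rose did so with many genes of the microglial lineage. Of the 16 further homeostatic genes 4 were higher, among them Csf1r (0.18, SE 0.03), and 11 of 16 shared macrophage genes were higher with a median of 0.32, led by Cd68 (0.62, SE 0.08) and Laptm5 (0.31, SE 0.05). Of 18 activated genes 10 were higher with a median of 0.40, led by Clec7a (1.75, SE 0.20) and Ccl3 (2.52, SE 0.37). The activated genes named here had low counts, with medians over all mice of 16.5 for Clec7a, 5 for Ccl12 and 4 for Ccl3. None of these lists had a gene called lower at 72 h. Beside them, the 8 members other than Olfml3 had values of 0.10 to 0.20.

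No purine signalling gene of 13 was called at 24 or 72 h, and 3 of 11 ligand and regulator genes were higher at 72 h, led by Csf1 (0.20, SE 0.05) and the TGF-beta receptor gene Tgfbr2 (0.19, SE 0.04). No perivascular macrophage gene of 8 and no monocyte or neutrophil gene of 4 was called at 72 h. Lyve1 was higher at 24 h (0.70, SE 0.19), as was 1 neuron gene, Gad2 (0.25, SE 0.06), and Gfap was higher at 24 h (0.49, SE 0.10) and 72 h (0.69, SE 0.09). The monocyte and neutrophil sum at 72 h was 20.8 to 36.2 CPM in sham and 23.3 to 44.8 in CHI mice. The sum of the members was 186.4 to 261.3 CPM in sham mice at 72 h (median 215.9) and 197.99 to 321.8 in CHI mice (median 244.5).

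**Figure D4:**
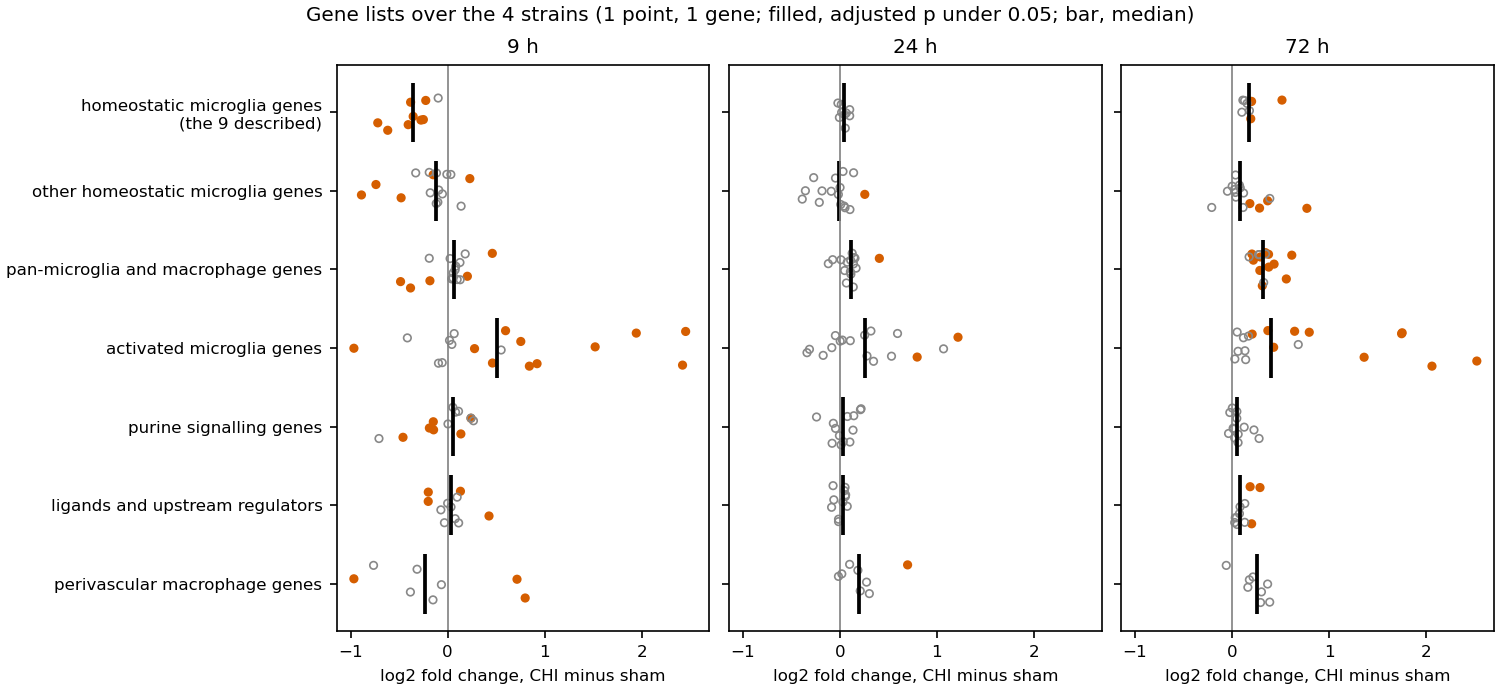
Log2 fold change of CHI against sham over all strains for the 9 members and for the genes of 6 other lists at 9, 24 and 72 h, 1 point a gene, filled where the adjusted p was under 0.05, with a bar at each list's median. The members' median is −0.35 at 9 h and 0.18 at 72 h, and the activated genes' median is 0.51 and 0.40.

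The 9 genes varied together from mouse to mouse within groups. Pearson's r of the log2 levels, taken as deviations from each group's mean over 200 mice, was 0.10 to 0.71 over the 36 pairs of members (median 0.37), and every pair was above 0. The highest was between P2ry12 and Gpr34 (0.71), followed by P2ry12 and P2ry13 (0.64) and Tmem119 and Selplg (0.64), and the lowest was between Siglech and Olfml3 (0.10). The last 2 of the high pairs are the neighbours in the genome. Sall1 had low values with Olfml3 (0.12) and Tmem119 (0.17). The values of 1 mouse share its library and depth, so these are descriptions only.

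In a comparison of each gene with the mean of the standardised member levels over the same 200 mice, with 20111 genes compared, r of all other genes had its 5th and 95th percentiles at −0.26 and 0.32. The 10 highest genes outside every list were Ddah1 (r = 0.65), Mpeg1 (0.64), Rgs5 (0.60), Itm2a (0.60), Tnfrsf19 (0.59), Ugp2 (0.59), Unc93b1 (0.58), Gnai2 (0.58), Fads2 (0.57) and Chtf8 (0.56). Mpeg1 encodes a pore-forming protein of macrophages and Unc93b1 a chaperone of endosomal Toll-like receptors. Of the listed genes that are not members, Laptm5 had 0.67 and Csf1r 0.64. High values were not confined to genes listed for microglia. Of the astrocyte genes, Slc1a3 had 0.58, Slc1a2 0.51 and Aqp4 0.49, but Gfap 0.11. Of the endothelial genes, Slco1a4 had 0.49, but Cdh5 0.11. Each member was compared with the mean of the other 8, and P2ry12 was highest among all genes (0.79), while Sall1 was lowest among members (0.37).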

How the data were processed

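RNA of 200 mouse brain samples was sequenced. For the C57BL/6J mice the study's methods give poly(A)-selected paired-end libraries and an nf-core workflow, and per the labels reads of all mice were processed with STAR and Salmon against GRCm39. The annotation release and strand setting are not given in the sources used here. The authors deposited estimated counts per gene (56941 genes, not normalised) and TPM, which divide by transcript length and library total. Columns were matched to mice by name, and 0 sample columns were left out.

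Estimated counts were rounded, and a gene was tested if the number of mice holding 10 or more counts reached the size of the smaller (or smallest) group, with edgeR 4.0.16 in R 4.3.3 (TMM factors, robust quasi-likelihood F test). Sex and age were covariates (age alone where all mice were of 1 sex), with strain in fits over strains. P-values were adjusted by Benjamini-Hochberg over all genes tested, with a threshold of 0.05. SE was the log2 fold change divided by the square root of F. CPM are TMM-normalised, and TPM served only to order genes by level. For likeness, log2 CPM (prior count 1) less each group's mean were correlated.

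Groups came from strain, surgery and time in the labels. Replicate numbers are names only and mark no pairing, and each sample is taken as 1 mouse. Alternatives were DESeq2 1.42.0, DESeq2 with gene-length offsets, RLE factors, other filters and covariates, and subsets of mice. Single experiments over all strains, sets without mice whose sex-linked genes went against the label, without nRestore CHI 9 h replicate 2, and the subsets for P2ry12 at 24 h were chosen after seeing the data. The fits were first tested on simulated data.

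The members and the other gene lists were chosen with earlier results of these data known. Named were the 9 members in every comparison, Il1r1, of each other list the genes among the 2 with the smallest p over all strains at each time where they were called, and the 10 genes of no list most like the members. Cx3cl1, the listed genes given by likeness that are not members, and the monocyte and neutrophil genes given with a median count were named after their values had been seen. Promoter windows were read from GRCm39 before the start of the GENCODE canonical transcript. Total counts set the precision, and the lowest count of a member was 56. A gene that the naming rule would have given is not reported here, and the counts include it.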

Additional observations from a re-analysis of the deposited data

Results flagged for a closer look

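The effect of CHI on P2ry12 at 24 h differed between IL-1R1 gKO and C57BL/6J mice, by 0.46 on the log2 scale in the test of the difference itself (edgeR, adjusted p = 0.030).

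The effect of CHI also differed between times in the test of that difference. Effects at 9 h were below those at 24 h by −0.76 for Olfml3, −0.60 for P2ry12, −0.53 for Gpr34, −0.41 for Siglech, −0.38 for Sall1, −0.36 for Selplg, −0.29 for P2ry13 and −0.29 for Tmem119. Against 72 h they were −1.23 for Olfml3, −0.74 for P2ry12, −0.58 for Gpr34, −0.53 for Selplg, −0.48 for Siglech, −0.42 for Tmem119, −0.38 for Sall1, −0.38 for P2ry13 and −0.29 for Cx3cr1. All 9 h mice belong to experiments without later mice, so experiment and time cannot be told apart here.

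Over 9 genes in each of 16 groups of 4 to 10 mice, there were 14 pairs of a gene and a group in which 1 mouse stood far from the rest by the gap to its nearest neighbour divided by the group's whole range, where chance gives about 1 in 20. Among IL-1R1 nRestore groups, 2 mice stood apart in 2 genes each. CHI replicate 2 at 9 h did so for Cx3cr1 (0.731) and Sall1 (0.724), and sham replicate 1 at 24 h for Cx3cr1 (0.739) and Sall1 (0.719). C57BL/6J sham replicate 3 at 72 h stood apart for Olfml3 (0.697) and Selplg (0.739). Single genes were P2ry12 in nRestore sham replicate 2 at 9 h (0.887), Gpr34 in eRestore sham replicate 6 at 9 h (0.862), Siglech in eRestore sham replicate 3 at 72 h (0.634), and Selplg in C57BL/6J sham replicate 4 (0.647) and eRestore sham replicate 4 (0.741) at 24 h. For Sall1 at 24 h they were C57BL/6J sham replicate 5 (0.891), eRestore CHI replicate 7 (0.559) and nRestore CHI replicate 3 (0.553).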

How the results depend on the processing

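No paired analysis was possible because the labels give no replicate numbers, and those used here only name the mice. Over 35 comparisons and 258 alternatives, 219 counts of called members stayed within 1.5 times the reported count and 39 did not. Most of these comparisons had a reported count of 0, which was taken as unchanged only where it stayed 0. The totals therefore do not measure how stable the counts above 0 were, and the counts that moved are given below. Of 2322 values of single members, 0 called values changed sign, 77 lost their call and 18 gained one. The cause of the changes was not tested. Calls over all genes moved between alternatives as well, for example in C57BL/6J at 9 h from 2385 in the reported fit to 1226 in the largest experiment. At 9 h the C57BL/6J count of 8 was 4 without covariates, 3 in the largest experiment and 4 to 9 without 1 sham mouse. The gKO count of 0 was 2 with DESeq2, which called 218 of all genes against 33 in the reported fit. The eRestore count of 2 was 1 without a filter, 1 in the largest experiment and 0 to 2 without 1 sham mouse. Of all genes, 898 were called without a filter and 137 in that experiment, against 1222 in the reported fit. The nRestore count of 0 was 1 with DESeq2, 1 with DESeq2 and length offsets, 2 without a filter and 0 to 1 without 1 mouse. Calls over all genes rose as well, to 399 with DESeq2, 325 with length offsets and 806 without a filter, against 102 in the reported fit. Over all strains the count of 8 at 9 h was 4 in eIL-1-80 alone and 0 in TM-2-33 alone, which held no C57BL/6J mice. All but 1 of 135 values stayed below 0. At 24 h the C57BL/6J count of 0 was 1 with DESeq2, 1 without a filter and 1 with experiment in place of age. These fits called 140, 333 and 98 of all genes, against 67 in the reported fit. The count of 0 over all strains was 1 without covariates (Gpr34, 0.21), where 308 genes were called against 274. The call of P2ry12 between gKO and C57BL/6J was lost in eIL-1-38 alone (0) and without NiL-1-21 (0), with a count of 0 to 1 without 1 sham mouse. At 72 h the C57BL/6J count of 0 was 2 with DESeq2, and the count of 4 over all strains was 1 without C57BL/6J, 1 without eRestore, 1 in eIL-1-38 alone, 0 in eIL-1-56 and 0 in nIL-1-60. The sham differences of Olfml3 in gKO and nRestore were lost (0 and 0) with experiment in place of age. By CPM, which ignores length, the order of the members by level would be another, with Cx3cr1 first and P2ry12 next.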
